A study of Saccharomyces cerevisiae with 4 samples.

Results

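The genes described here encode abundant enzymes of lower glycolysis and alcoholic fermentation in Saccharomyces cerevisiae. They were chosen by identifier, as rows of the deposited count table, and all 10 were found among its 4970 counted regions. These were TDH1 (YJL052W), TDH2 (YJR009C), TDH3 (YGR192C), PGK1 (YCR012W), ENO1 (YGR254W), ENO2 (YHR174W), CDC19 (YAL038W), FBA1 (YKL060C), PDC1 (YLR044C) and ADH1 (YOL086C). All 10 passed the filter on low counts, which kept 4845 genes. Their synthesis was followed by 4tU-seq: cells receive a brief pulse of 4-thiouracil, and the RNA that incorporates it is purified and sequenced. The groups were Δsyc1 (genotype syc1::kanMX, 2 libraries) and wild-type (2 libraries). Both were BY4741, grown at 30 °C in YPD from an OD600 of 0.1 to 0.8, with 4-thiouracil at 5 mM for the last 6 min, and 100 ng of RNA entered each library. Syc1 is the subunit that defines the APT complex, and the comparison asks how its loss changes RNA synthesis. The libraries of each group were described as biological replicates.

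Glycolysis converts glucose to pyruvate, and in yeast growing on glucose most pyruvate is then fermented to ethanol, which regenerates the NAD+ used by glyceraldehyde-3-phosphate dehydrogenase. Several steps are carried by paralogues: a major enzyme made during growth on glucose and minor ones linked to other growth states. The genes of this pathway are classical targets of the activators Gcr1 and Rap1, and some minor forms respond to stress.

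Libraries held between 22880058 and 36175417 counts. SYC1 itself had 1 and 2 counts in Δsyc1 against 743 and 794 in wild-type. The MATa-specific gene STE2 had 7825 and 6146 counts in Δsyc1, against 27882 and 26978 in wild-type. In its list 2 of the 3 genes were called down, where 8.15% of all tested genes were. The list median was −0.93 on the log2 scale. Of the α-specific genes, MF(ALPHA)1 had 5 counts or fewer in every library and STE3 had between 70 and 110. SAG1 had 2388 and 1982 in Δsyc1, against 3300 and 3387 in wild-type. These counts are not scaled, and the Δsyc1 libraries were smaller. After scaling, the 2 tested α-specific genes, STE3 and SAG1, lay higher in both Δsyc1 libraries than in both wild-type libraries. So did 40.5% of all tested genes. Their median was 0.25 on the log2 scale, and 0 were called. By an edgeR adjusted p below 0.1 alone 1 was higher, as were 33.5% of all tested genes. LEU2, URA3 and MET17, which BY4741 lacks, had 0 counts in all 4 libraries. A count of 0 allows up to 3 counts, at most 0.140 CPM (the depth-scaled count of a library, set on a common scale by TMM factors, which are taken from the bulk of genes). Every change is therefore relative to the other RNAs of a library.

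The Δsyc1 libraries differed from each other in these genes. Replicate 2 lay above replicate 1 in 10 of 10 genes, with a median log2 ratio of 0.35 and a range of 0.03 (TDH1) to 0.64 (PDC1). For 8 of the 10, the ratio exceeded the 95th percentile of all tested genes, which was 0.23, while the median over all tested genes was −0.0026. The 100 other genes with the highest level per length had a median of −0.02 and lay above 0 in 45 cases. In wild-type the median log2 ratio of replicate 2 over 1 was −0.08 over the 10 genes, which ranged between −0.24 and 0.04, and 4 (PGK1, ENO1, PDC1 and ENO2) lay below the 5th percentile of all tested genes, which was −0.15. What set the libraries apart was not tested, and values without each library stand beside the results they change.

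**Figure D1:**
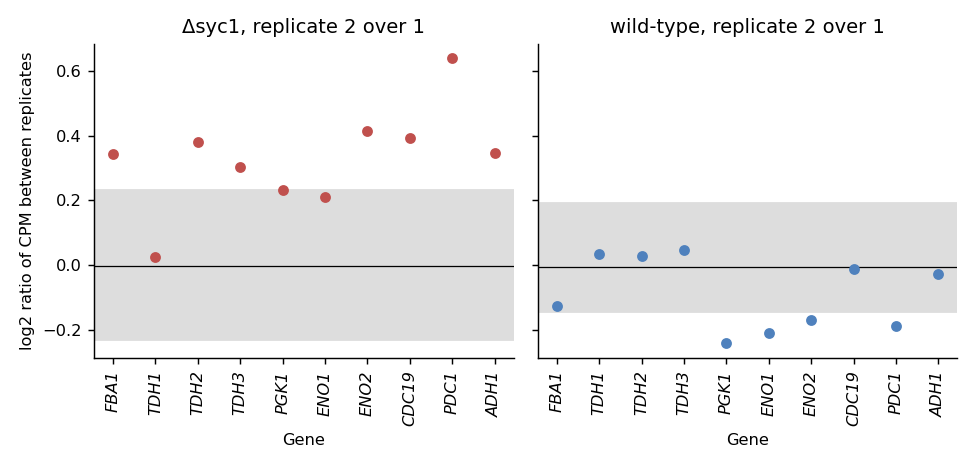
Log2 ratio of CPM between replicate 2 and replicate 1 (vertical axis) for each of the 10 genes, in Δsyc1 (left) and wild-type (right); the grey band spans the 5th to the 95th percentile of all tested genes and the line is their median. In Δsyc1 all 10 points lie above 0 and 8 lie above the band, PDC1 highest at 0.64.

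Because paralogues share sequence, the extent to which reads could tell them apart was examined. Sequences are from the RefSeq R64 genome, and all 4970 counted regions lay inside its chromosomes. Coding sequences were 95.8% identical between TDH2 and TDH3, 88.9% between TDH1 and TDH3 and 94.8% between ENO1 and ENO2. The longest identical run was 173 nt for TDH2 and TDH3 and 112 nt for ENO1 and ENO2. Of the 50-mers in each counted region, 12.9% occurred elsewhere in the genome for TDH1, 26.6% for TDH2, 21.7% for TDH3, 20.7% for ENO1 and 21.0% for ENO2. The share was 12.5% for ADH1, whose close relative ADH2 had between 13 and 24 counts per library, and 0.915% for PDC1. PGK1, CDC19 and FBA1 had no repeated 50-mer. Alignments of low mapping quality were removed by the authors, so levels of TDH, ENO and ADH genes may be understated by reads in the shared stretches, and their split between paralogues rests on stretches that differ. Such stretches are shown in coding orientation, with capitals where a base differs from TDH3 (bases 52 to 111 of the coding sequence) or from ENO2 (bases 340 to 399).
TDH3 (chrVII:883700-883759, minus strand): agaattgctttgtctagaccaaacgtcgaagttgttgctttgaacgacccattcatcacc
TDH1 (chrX:338322-338381, plus strand): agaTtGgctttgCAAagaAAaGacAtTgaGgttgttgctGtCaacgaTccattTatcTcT
TDH2 (chrX:454571-454630, minus strand): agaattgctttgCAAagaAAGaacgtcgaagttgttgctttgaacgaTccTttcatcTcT
ENO2 (chrVIII:451666-451725, plus strand): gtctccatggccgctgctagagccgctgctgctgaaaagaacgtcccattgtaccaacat
ENO1 (chrVII:1001266-1001325, plus strand): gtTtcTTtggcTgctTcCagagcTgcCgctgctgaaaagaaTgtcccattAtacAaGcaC
These are the 60-base stretches in which TDH1 differs most from TDH3 (17 bases) and ENO1 from ENO2 (13 bases), and TDH2 differs from TDH3 at 10 bases of the same stretch.

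The 10 genes did not change as a block in Δsyc1. TDH1, ENO1, PDC1 and CDC19 rose, by 4.98-fold, 3.26-fold, 2.15-fold and 1.53-fold, and none of the others was called. Calls required both a fold change above 1.5 in either direction and a Benjamini-Hochberg p below 0.1 over 4845 genes in edgeR's quasi-likelihood test. Thus 4 of 10 were called up, where 9.08% of all tested genes were, and 0 of 10 were called down, where 8.15% were. Without the fold change minimum the 4 were again higher (33.5% of all tested genes were) and 2, PGK1 and TDH3, were lower (35.5% of all). Lower genes numbered 6 (also TDH2, ENO2, FBA1 and ADH1) without Δsyc1 replicate 2, and 1 (PGK1) without any other single library. When DESeq2 tested against a fold change of 1.5, PDC1 and CDC19 lost their calls, leaving 2 of 10. Both Δsyc1 libraries lay above both wild-type libraries in 4 genes (40.5% of all tested genes) and below them in 3 (43.2% of all). The median log2 fold change was −0.03 over the 10 genes and −0.02 over all tested genes. It was 0.15 without Δsyc1 replicate 1 and −0.23 without Δsyc1 replicate 2.

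**Figure D2:**
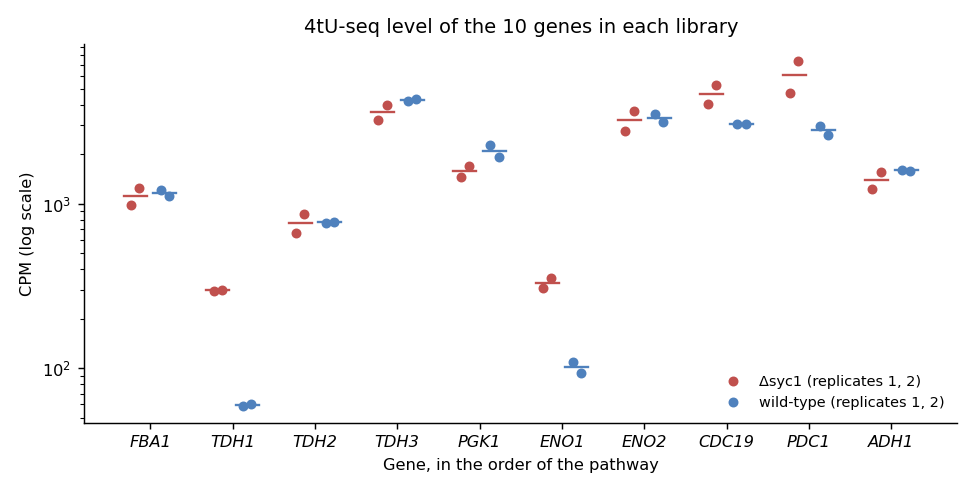
CPM on a log scale (vertical axis) of each gene in every library, with genes in pathway order; points are the 2 Δsyc1 (red, left) and 2 wild-type (blue, right) libraries and lines are their means. TDH1 stands near 298 CPM in Δsyc1 and 59.8 CPM in wild-type, whereas the libraries of FBA1, TDH2 and ENO2 overlap.

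**Figure D3:**
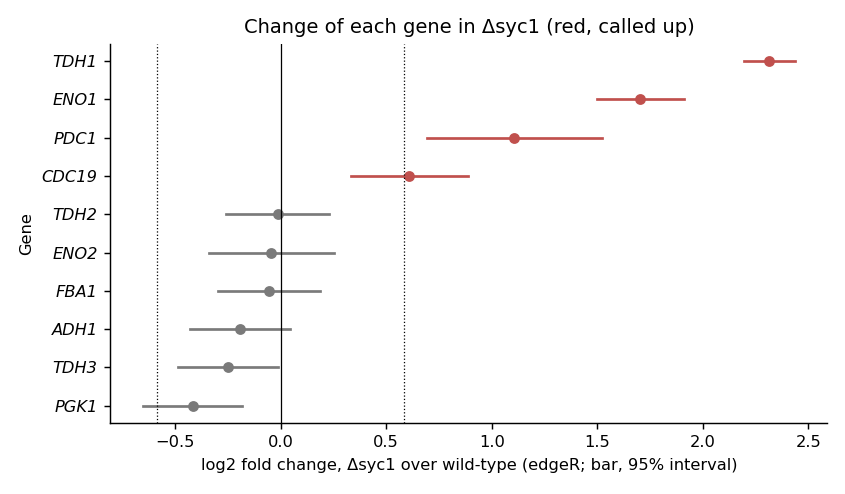
Log2 fold change of Δsyc1 over wild-type (horizontal axis; edgeR, bars are 95% intervals) for the 10 genes, with dotted lines at the 1.5-fold minimum in each direction. The 4 called genes, in red, run from 0.61 (CDC19) to 2.31 (TDH1), and PGK1 is lowest at −0.42.

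FBA1, fructose-bisphosphate aldolase, splits the hexose bisphosphate and opens the lower part of glycolysis. FBA1 (chromosome XI, 326357 to 327511, minus strand) had 988 and 1255 CPM in the Δsyc1 libraries, against 1217 and 1113 CPM in the wild-type libraries. The groups overlapped, and the fold change was 0.963 (95% interval 0.814 to 1.14, edgeR adjusted p 0.673). The log2 fold change of FBA1 was −0.24 without Δsyc1 replicate 2. Without normalization factors it was −0.21 and FBA1 passed the adjusted p as lower (edgeR, 0.0784).

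TDH1, TDH2 and TDH3 encode the isoenzymes of glyceraldehyde-3-phosphate dehydrogenase, Tdh3 being the major one in growing cells and Tdh1 the one linked to slow growth and stress. TDH1 (chromosome X, 338198 to 339398, plus strand) had 295 and 300.2 CPM in Δsyc1, against 59.1 and 60.5 CPM in wild-type. The groups stood far apart, with replicates close together in both, and the log2 fold change was 2.31 ± 0.05 by edgeR (SE, adjusted p 8.38e-08), place 21 among the rises of 4845 genes. It stayed called without each library in turn. TDH2 (chromosome X, 453546 to 454729, minus strand) had 664 and 864 CPM in Δsyc1, against 763 and 778 CPM in wild-type. Its wild-type values lay between the Δsyc1 values (fold change 0.991, 95% interval 0.837 to 1.17, edgeR adjusted p 0.920). TDH2 passed the adjusted p in opposite directions when a Δsyc1 library was left out, with a log2 fold change of 0.16 without replicate 1 and −0.22 without replicate 2. TDH3 (chromosome VII, 882707 to 883849, minus strand) had 3227 and 3983 CPM in Δsyc1, against 4217 and 4350 CPM in wild-type. Both Δsyc1 libraries lay lower, by a log2 fold change of −0.25 ± 0.10 by edgeR (SE, adjusted p 0.0655), a change that does not reach 1.5-fold. The adjusted p of TDH3 was over 0.1 under a length offset (an offset per library that removes a trend of counts with region length) and when Δsyc1 replicate 1, wild-type replicate 1 or wild-type replicate 2 was left out, where the log2 fold change was −0.16, −0.11, −0.27 and −0.23.

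Within the TDH family the balance of counts shifted. TDH1 made up 7.04% and 5.83% of the family's counts in Δsyc1, and 1.17% in each wild-type library. The Wilson 95% intervals, which cover counting error only, were 6.89% to 7.20% in Δsyc1 replicate 1, against 1.13% to 1.22% in wild-type replicate 1, and similarly narrow in the others. The TDH1 to TDH3 ratio of counts per kb was 0.0870 and 0.0717 in Δsyc1, against 0.0133 and 0.0132 in wild-type, a 5.94-fold difference. This ratio is taken within a library and so does not depend on the scaling. The two-sided exact permutation p was 0.333, the smallest p that 2 against 2 libraries allow. TDH2 to TDH3 moved less, with 0.199 and 0.209 in Δsyc1 and 0.175 and 0.173 in wild-type (1.17-fold, exact permutation p = 0.333). The summed level of the family was 4667 ± 679 CPM in Δsyc1 and 5114 ± 105 CPM in wild-type (n = 2 each, SD), and the libraries overlapped (exact permutation p = 0.667).

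PGK1, phosphoglycerate kinase, makes the first ATP of the pathway. PGK1 (chromosome III, 137707 to 139154, plus strand) had 1453 and 1707 CPM in Δsyc1, against 2287 and 1933 CPM in wild-type. All Δsyc1 values lay lower, with a log2 fold change of −0.42 ± 0.10 by edgeR (SE, adjusted p 0.00756), a fold change of 0.749 that does not reach the minimum. It remained below an adjusted p of 0.1 without each library in turn.

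ENO1 and ENO2 encode enolase, which forms phosphoenolpyruvate. Eno2 is the form induced by glucose, and Eno1 is made on non-fermentable carbon sources too. ENO1 (chromosome VII, 1000891 to 1002388, plus strand) had 305 and 353 CPM in Δsyc1, against 109 and 93.7 CPM in wild-type. The groups did not overlap, and the log2 fold change was 1.70 ± 0.09 by edgeR (SE, adjusted p 1.79e-06). ENO2 (chromosome VIII, 451298 to 452773, plus strand) had 2771 and 3693 CPM in Δsyc1, against 3528 and 3136 CPM in wild-type. These ranges overlapped (fold change 0.970, 95% interval 0.790 to 1.19, edgeR adjusted p 0.783). ENO2 passed the adjusted p, at −0.27 on the log2 scale, without Δsyc1 replicate 2. ENO1 made up 9.93% and 8.73% of the counts of the pair in Δsyc1, against 2.98% and 2.90% in wild-type. The ENO1 to ENO2 ratio per kb was 3.39-fold higher in Δsyc1 (exact permutation p = 0.333), while the summed level was 3561 ± 686 CPM in Δsyc1 and 3433 ± 288 CPM in wild-type (n = 2 each, SD; exact permutation p = 1.00).

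**Figure D4:**
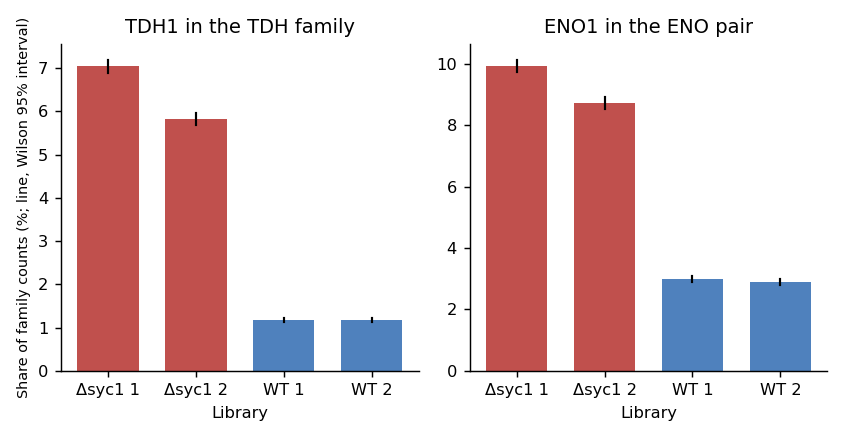
Share of family counts in percent (vertical axis, from 0) taken by TDH1 among TDH1, TDH2 and TDH3 (left) and by ENO1 among ENO1 and ENO2 (right), in 2 Δsyc1 and 2 wild-type (WT) libraries; lines are Wilson 95% intervals. TDH1 takes 7.04% and 5.83% in Δsyc1 against 1.17% in wild-type, and ENO1 takes 9.93% and 8.73% against 2.98% and 2.90%.

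CDC19, the major pyruvate kinase, forms pyruvate. CDC19 (chromosome I, 71760 to 73452, plus strand) had 4038 and 5301 CPM in Δsyc1, against 3071 and 3047 CPM in wild-type. Both Δsyc1 libraries lay higher, with a log2 fold change of 0.61 ± 0.12 by edgeR (SE, adjusted p 0.00245), just past the minimum of 1.5-fold at 1.53-fold. The call was lost without Δsyc1 replicate 2 (log2 fold change 0.40), with upper-quartile factors (0.52), without normalization factors (0.46) and under the length offset without or with a replicate block (0.57 and 0.56). The adjusted p stayed below 0.1 in each of these. The counted region overlaps YAL037C-A on the other strand by 81 nt, which had 1 count in all 4 libraries together.

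PDC1, the major pyruvate decarboxylase, commits pyruvate to ethanol. PDC1 (chromosome XII, 232314 to 234111, minus strand) had 4738 and 7381 CPM in Δsyc1, against 2995 and 2630 CPM in wild-type. The lower Δsyc1 library still exceeded both wild-type libraries, and the log2 fold change was 1.11 ± 0.18 by edgeR (SE, adjusted p 9.01e-04). Its size depended on the library used, being 0.75 without Δsyc1 replicate 2 and 1.39 without Δsyc1 replicate 1, both past the minimum. ADH1, the alcohol dehydrogenase that reduces acetaldehyde to ethanol, ends the pathway. ADH1 (chromosome XV, 159460 to 160632, minus strand) had 1235 and 1570 CPM in Δsyc1, against 1617 and 1585 CPM in wild-type. Both Δsyc1 values were lower, but the difference did not pass the test (fold change 0.876, 95% interval 0.743 to 1.03, edgeR adjusted p 0.137). ADH1 passed the adjusted p, at −0.38 on the log2 scale, without Δsyc1 replicate 2, and it also passed with upper-quartile factors, without normalization factors and in DESeq2's Wald test. Its region overlaps YOL086W-A on the other strand by 80 nt, with 107 and 91 counts there in Δsyc1 and 245 and 256 in wild-type, against 30978 or more for ADH1 itself.

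Levels per length were then ordered. In Δsyc1 the order by mean CPM per kb was PDC1 (3370 ± 1039), TDH3 (3154 ± 467), CDC19 (2758 ± 528), ENO2 (2190 ± 442), ADH1 (1195 ± 202), PGK1 (1091 ± 124), FBA1 (971 ± 163), TDH2 (645 ± 119), TDH1 (248 ± 3.15) and ENO1 (219.8 ± 22.6; SD, n = 2 libraries). Ranges over libraries overlapped between neighbours among the top 4 and among ADH1, PGK1 and FBA1, and the other neighbours were apart. In wild-type it was TDH3 (3748 ± 82.0), ENO2 (2257 ± 188), CDC19 (1807 ± 9.90), PDC1 (1564 ± 144), PGK1 (1457 ± 173), ADH1 (1365 ± 19.1), FBA1 (1009 ± 63.4), TDH2 (651 ± 8.99), ENO1 (67.5 ± 6.98) and TDH1 (49.8 ± 0.820). Here PGK1 overlapped both its neighbours, PDC1 and ADH1, and the other neighbours were apart. The word abundant fitted 8 of the 10, which stood at place 95 or higher among the 4845 tested genes in both groups. TDH1 stood at place 427 in Δsyc1 and 3013 in wild-type, and ENO1 at place 533 in Δsyc1 and 2345 in wild-type.

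Summed, the 10 genes held 1.90% and 2.47% of all counts in Δsyc1, against 2.08% and 1.99% in wild-type. The Δsyc1 libraries lay on either side of wild-type (2.18% ± 0.406 and 2.03% ± 0.0682, n = 2 each, SD; exact permutation p = 1.00). On the log2 scale the ratio of mean shares was 0.10, but 0.28 without Δsyc1 replicate 1 and −0.10 without Δsyc1 replicate 2. PDC1 and CDC19 together made up 44.5% and 48.0% of the counts of the 10 genes in Δsyc1, against 30.5% and 30.3% in wild-type. The remaining 8 genes held 1.05% and 1.28% of all counts in Δsyc1, against 1.45% and 1.38% in wild-type. PDC1 and CDC19, set apart here, were both called up in these same data. All these shares are of raw counts, without TMM factors, which were 0.96 and 0.94 in Δsyc1 and 1.05 and 1.06 in wild-type. The shares of all counts therefore depend on scaling: for all 10 genes the log2 ratio was 0.26 with TMM-scaled CPM. The share of PDC1 and CDC19 among the 10 genes is taken within a library and does not.

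The other tested genes with the most similar profile over the 4 libraries were the ribosome-associated chaperone gene SSB2, the aspartyl-tRNA synthetase gene DPS1 and the histidine biosynthesis gene HIS4. Their distance to the mean profile of the 10 genes was 0.025, 0.028 and 0.028, a Euclidean distance of centred log2 CPM. Their log2 fold changes were 0.49, 0.45 and 0.46, and none was called. All passed the adjusted p without the fold change minimum (edgeR, 0.00214, 0.00342 and 0.00457), as 33.5% of all tested genes did in that direction. The mean profile averages genes that changed differently: the 10 log2 fold changes ran from −0.42 to 2.31, with a median of −0.03.

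Sequences upstream of the genes were read next, because the 10 genes are described as sharing activators. Within 500 bases upstream of the counted region, the Rap1-type motif ACCCANNCA was found in 4 of the 10 genes (TDH3, PGK1, ENO1 and FBA1) and upstream of 6.58% of all 4909 mRNA regions, on either strand. The Gcr1-type motif CTTCC was found in 8 of the 10 and in 66.2% of all, and with 3 or more matches in 4 (TDH2, PGK1, CDC19 and ADH1) and in 11.5% of all. The Msn2/4-type stress motif AGGGG was found in 7 of the 10 (all but TDH2, ENO2 and FBA1) and in 35.0% of all. AGGGG was found in TDH1, ENO1, PDC1 and CDC19, which were called up, and in TDH3, PGK1 and ADH1, which were not. ACCCANNCA was found in ENO1 among the called genes and in TDH3, PGK1 and FBA1 among the others. CTTCC was missing from PDC1, which was called up, and from TDH3, which was not. A link between motifs and changes was not tested. Windows of 300 bases, starting 450 bases upstream, are shown for the pair with the largest rises (TDH1, ENO1) and the pair with the lowest fold changes (TDH3, PGK1), in the direction of transcription. Capitals mark whole matches to these motifs on either strand, so that GGAAG and CCCCT are matches on the other strand.
TDH1 (chrX:337748-338047, plus strand): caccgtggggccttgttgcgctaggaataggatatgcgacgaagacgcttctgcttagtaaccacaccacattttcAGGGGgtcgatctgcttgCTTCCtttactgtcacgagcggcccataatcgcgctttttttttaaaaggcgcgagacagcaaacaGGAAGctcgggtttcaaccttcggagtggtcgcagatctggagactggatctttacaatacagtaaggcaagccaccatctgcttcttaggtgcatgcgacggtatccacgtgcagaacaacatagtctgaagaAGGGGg
ENO1 (chrVII:1000441-1000740, plus strand): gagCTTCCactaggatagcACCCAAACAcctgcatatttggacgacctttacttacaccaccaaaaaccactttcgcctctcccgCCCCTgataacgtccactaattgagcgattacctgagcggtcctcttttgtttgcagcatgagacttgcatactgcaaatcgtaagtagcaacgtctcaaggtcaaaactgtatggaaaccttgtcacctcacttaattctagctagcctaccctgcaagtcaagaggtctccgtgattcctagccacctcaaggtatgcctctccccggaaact
TDH3 (chrVII:884000-884299, minus strand): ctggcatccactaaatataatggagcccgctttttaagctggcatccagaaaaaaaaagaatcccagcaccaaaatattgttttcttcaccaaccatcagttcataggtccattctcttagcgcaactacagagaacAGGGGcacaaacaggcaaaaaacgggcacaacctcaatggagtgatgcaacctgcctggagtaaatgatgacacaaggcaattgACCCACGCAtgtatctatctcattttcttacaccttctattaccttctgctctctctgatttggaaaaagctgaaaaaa
PGK1 (chrIII:137257-137556, plus strand): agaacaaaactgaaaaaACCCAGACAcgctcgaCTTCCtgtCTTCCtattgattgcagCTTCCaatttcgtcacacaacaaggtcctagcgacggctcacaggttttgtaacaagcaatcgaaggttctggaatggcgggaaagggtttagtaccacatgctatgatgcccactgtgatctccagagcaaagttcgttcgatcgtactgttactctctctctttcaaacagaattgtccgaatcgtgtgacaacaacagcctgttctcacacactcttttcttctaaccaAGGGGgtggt
In this window TDH1 held 2 CTTCC and 2 AGGGG matches, ENO1 held 1 match to each of the motifs, TDH3 held 1 ACCCANNCA and 1 AGGGG match, and PGK1 held 1 ACCCANNCA, 3 CTTCC and 1 AGGGG match. The TDH1 window overlaps the annotated gene YJL052C-A, which was not among the counted regions. A match is a description of letters, and binding was not measured here.

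The other genes of carbon metabolism were compared in the same fit. Of 36 tested genes in 5 lists, 8 were called up and 1 down, where 9.08% of all tested genes were called up and 8.15% down. The other glycolytic genes mostly stayed within the fold change minimum. HXK2, PGI1, PFK2, TPI1 and GPM1, which encode main enzymes of other glycolytic steps, had log2 fold changes between −0.13 and 0.11 and none passed the test. PFK1, a phosphofructokinase subunit gene, passed the adjusted p alone (edgeR 0.40 ± 0.10 with SE, adjusted p 0.00748). Both calls among the 9 tested genes of this list were minor paralogues. GPM2 (YDL021W), a relative of phosphoglycerate mutase with uncertain activity, had 8.81 and 10.1 CPM in Δsyc1, against 3.61 and 4.55 CPM in wild-type (edgeR log2 fold change 1.21 ± 0.15 with SE, adjusted p 2.18e-04). PYK2 (YOR347C), the minor pyruvate kinase, had 105 and 120.3 CPM in Δsyc1, against 56.6 and 53.9 CPM in wild-type (edgeR 1.03 ± 0.08 with SE, adjusted p 1.16e-05). GPM3, a further relative, passed the adjusted p alone at −0.30. The median of this list was 0.07.

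Among 7 other pyruvate decarboxylase and alcohol dehydrogenase genes tested (PDC2, their regulator, included), 1 was called up and 0 down, with a median log2 fold change of 0.20. PDC5 (YLR134W), the minor pyruvate decarboxylase, had 41.1 and 43.9 CPM in Δsyc1, against 23.7 and 19.3 CPM in wild-type (edgeR 0.98 ± 0.10 with SE, adjusted p 7.74e-05). PDC6 and ADH2 did not pass the filter, with 24 counts or fewer in every library. Without the fold change minimum 33.5% of all tested genes passed the adjusted p as higher and 35.5% as lower. All 7 genes of this list passed it, 4 of them higher and 3 lower. Beside PDC5 the higher ones were ADH3, the mitochondrial alcohol dehydrogenase (log2 fold change 0.51), ADH5 (0.29) and PDC2 (0.20), and the lower ones were ADH4 (−0.39), ADH6 (−0.26) and SFA1 (−0.16).

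In the glycerol branch, which diverts triose phosphate to glycerol, 2 of 4 genes were called up. GPD1 (YDL022W), the osmotically induced glycerol-3-phosphate dehydrogenase, had 453 and 511 CPM in Δsyc1, against 214 and 217.8 CPM in wild-type (edgeR log2 fold change 1.16 ± 0.07 with SE, adjusted p 2.66e-06). GPP2 (YER062C), a glycerol-3-phosphatase, had 47.3 and 52.2 CPM in Δsyc1, against 22.4 and 23.6 CPM in wild-type (edgeR 1.11 ± 0.08 with SE, adjusted p 8.88e-06). Their paralogues GPD2 and GPP1 had log2 fold changes of −0.02 and 0.0038.

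Of 10 tested genes of gluconeogenesis and acetate formation, 3 were called up and 1 down, where 9.08% of all tested genes were called up and 8.15% down. The median log2 fold change of the list was 0.42. By the adjusted p alone 7 were higher and 2 lower, against 33.5% and 35.5% of all tested genes. ACS1, among the lower ones, fell just short of the minimum at −0.584 (edgeR adjusted p 0.00221). ALD3 (YMR169C) and ALD4 (YOR374W), a cytosolic and a mitochondrial aldehyde dehydrogenase, rose by 1.05 ± 0.09 and 0.95 ± 0.05 (SE) on the log2 scale, and PYC1 (YGL062W), pyruvate carboxylase, by 0.80 ± 0.11. ALD5 (YER073W), another mitochondrial aldehyde dehydrogenase, had 228 and 246 CPM in Δsyc1, against 556 and 541 CPM in wild-type (edgeR −1.21 ± 0.06 with SE, adjusted p 8.77e-07). ALD3 shares 32.8% of its 50-mers with other sites, ALD2 among its close relatives, so its level is uncertain. PYC1 shares 8.22% of its 50-mers, and its region overlaps 1 other counted region on the same strand. Of 6 tested regulators 0 were called. Without the fold change minimum 1 was higher and 4 were lower, where 33.5% of all tested genes were higher and 35.5% lower. The activator genes GCR1 and RAP1 were at −0.25 and −0.35, and REB1 was at 0.56.

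**Figure D5:**
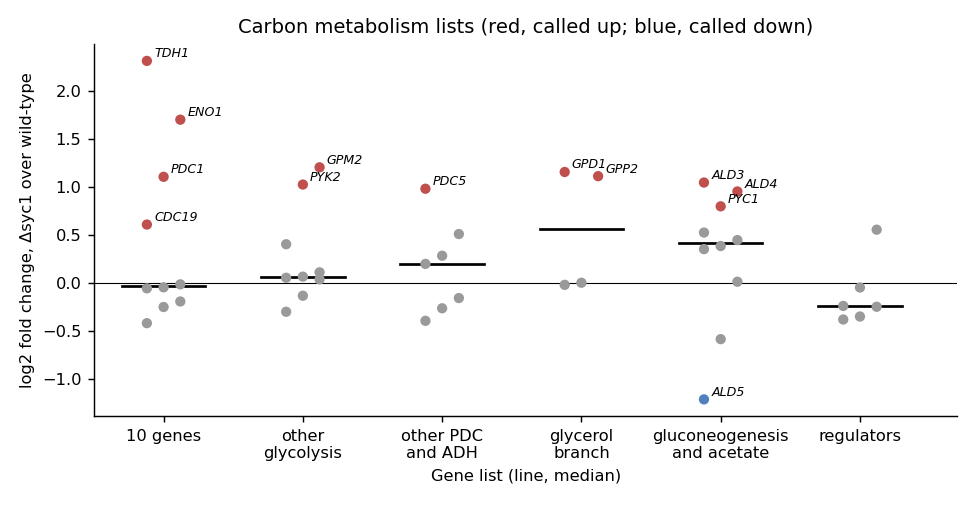
Log2 fold change of Δsyc1 over wild-type (vertical axis) for the 10 genes and 5 lists of related genes; each point is a tested gene (red, called up; blue, called down; grey, not called) and lines are medians. The called genes outside the 10 lie between 0.80 and 1.21, except ALD5 at −1.21.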

How the data were processed

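The 4tU-seq counts were deposited by the authors as raw HTSeq counts per region. Per the study's methods, read pairs were mapped to sacCer3 by STAR 2.3.0, and SAMtools kept proper pairs of sufficient mapping quality. Use of strand in counting was not given in the sources used here. The deposited table of the authors' own comparison (mean normalized counts, fold changes and p-values) was not used.

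Counts were fitted with edgeR 4.0.16 in R 4.3.3 (TMM factors, quasi-likelihood test, group as the only term) after keeping genes with a mean normalized count (DESeq2 1.42.0 size factors) of at least 30 in either group. The fit was tested on simulated data. P-values were adjusted over all genes by Benjamini-Hochberg. SE is the log2 fold change over the square root of F, which is approximate. Shares and ratios were compared by exact permutation tests (scipy 1.17.1). Sequence features used Python 3.11.15, and coding sequences were aligned with Biopython 1.88.

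Named genes were the 10 genes, SYC1, up to 3 called genes per direction in each related list, and the 3 genes with the nearest profile. Genes and lists were chosen with earlier results of these data known. Other genes named were chosen after their values were seen. HXK1, GLK1, ADH7, FBP1, GCR2 and MIG1 were listed but were not among the counted regions, so they were not analysed here. Alternatives covered scaling, filters, DESeq2, replicate and length terms, and leaving out each library.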

Additional observations from a re-analysis of the deposited data

How the results depend on the processing

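The rises of TDH1 and ENO1 kept their call in all alternatives run. DESeq2 against a fold change of 1.5 called 2 of the 10 genes up (TDH1 and ENO1, 2 also without the fold change minimum) and 0 lower, since its test demands more than that fold change. Genes lower without the fold change minimum numbered 2, but 4 without normalization factors, 1 under the length offset, and between 1 and 6 when a library was left out, 6 without Δsyc1 replicate 2. Among related lists, genes called down numbered 1 (ALD5), but 2 with upper-quartile factors, without normalization factors, and with the replicate block, the length offset or both, and between 1 and 2 when a library was left out.

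Uncalled genes changed sign. TDH2 was at 0.062 and FBA1 at 0.029 under the length offset, and at 0.048 and 0.019 with the replicate block added. Without Δsyc1 replicate 1, TDH2 was at 0.16, ENO2 at 0.15 and FBA1 at 0.11. Without wild-type replicate 1, ENO2 was at 0.04 and FBA1 at 0.01, and without wild-type replicate 2, TDH2 was at 0.0018. Without Δsyc1 replicate 2 these and ADH1 passed the adjusted p, TDH2 at −0.22, ENO2 at −0.27, FBA1 at −0.24 and ADH1 at −0.38. The cause was not tested.

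Among all tested genes, 440 were called up and 395 down. The split was 308 and 655 without normalization factors, 373 and 524 with upper-quartile factors, 488 and 272 under the length offset, and 229 and 127 for DESeq2 against a fold change of 1.5. Without normalization factors the median of all genes was −0.17, against −0.02. The labels link same-numbered libraries by a number only and do not say whether they were paired. Their deviations correlated at −0.20 across genes, which cannot settle this with 2 libraries a group. With the replicate block 441 genes were called up and 397 down, and with numbers crossed, an alternative added after the data were seen, 441 and 398; both kept 4 of the 10 genes called up, and ADH1 then passed the adjusted p without reaching the fold change minimum.

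With 2 libraries a group the permutation tests could not go under 0.333. For some shares, such as that of TDH1 in wild-type, counting error was larger than the spread between libraries.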
